A study of Mus musculus with 54 samples.

Results

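The 7 genes described here encode the core of the renin-angiotensin system and were chosen by symbol, each matched to its Ensembl gene identifier among the 54232 genes listed in every library. They were Ren1 (ENSMUSG00000070645), Agt, Ace, Agtr1a, Agtr1b, Agtr2 and Mme, and all 7 were found. Their RNA was followed in kidney, brain and heart of naturally aged male BL6 mice of about 20 months, and in the brain of a dementia model. The aged mice had received Cmpd60, a selective inhibitor of the histone deacetylases HDAC1 and HDAC2, at 22.5 mg/kg by daily intraperitoneal injection for 14 days, or the vehicle alone. There were 6 Cmpd60 and 5 vehicle libraries of kidney, 6 and 6 of brain, and 5 and 6 of heart. In the dementia model, mice of the line APPSWE-1349 (APPSWE hereafter) carried a transgene for the human amyloid precursor protein with the Swedish mutation (the promoter is not stated in the labels), AD-control mice were their littermates without it, both were 6 to 7 months old on a BL6 background, and both received the same treatments (4 Cmpd60 and 6 vehicle APPSWE libraries, 5 and 5 AD-control libraries). All libraries came from whole, homogenized tissue, so that fewer cells of a type and less RNA per cell cannot be told apart. The labels do not say which tissues came from the same mouse, so libraries were tested as if they came from separate mice. For the kidney the treatment field of the labels is opposite to the sample titles and source names, and the titles were followed throughout, so every kidney direction rests on the titles.

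In this system the protease renin, made mainly by juxtaglomerular cells of the kidney, cuts angiotensinogen to angiotensin I. Angiotensin-converting enzyme, encoded by Ace, trims angiotensin I to angiotensin II, which raises blood pressure through the AT1 receptors (Agtr1a and Agtr1b in rodents), while the AT2 receptor (Agtr2) is known for opposing actions. Neprilysin, encoded by Mme, cuts angiotensin I to angiotensin-(1-7) and also degrades amyloid-beta. Circulating angiotensinogen comes largely from the liver, which was not sampled, but kidney and brain also make it, the brain mostly in astrocytes.

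The sequence before the transcription start is shown for Agt, the only member that passed the test for Cmpd60 in any aged tissue, and for Ren1, which had at most 6 counts in any aged brain or heart library. Both are the 250 bases upstream of the start in RefSeq, mouse build GRCm38.p6, 5′ to 3′ on the strand of the gene, and capitals mark the TATA box motif TATAAA, searched on both strands.
Agt, chr8:124569707-124569956, minus strand: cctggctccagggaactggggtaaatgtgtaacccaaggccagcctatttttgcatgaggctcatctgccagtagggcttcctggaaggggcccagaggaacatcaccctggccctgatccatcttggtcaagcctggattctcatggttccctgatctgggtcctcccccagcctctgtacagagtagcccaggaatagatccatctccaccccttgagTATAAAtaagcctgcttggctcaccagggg
Ren1, chr1:133350424-133350673, plus strand: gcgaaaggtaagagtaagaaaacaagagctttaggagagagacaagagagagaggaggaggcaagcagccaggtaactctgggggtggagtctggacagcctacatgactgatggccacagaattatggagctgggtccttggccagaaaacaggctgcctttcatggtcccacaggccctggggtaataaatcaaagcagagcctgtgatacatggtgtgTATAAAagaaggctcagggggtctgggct
The motif began 30 bases before the start of Agt and 29 bases before that of Ren1. It was held by 12.4% of the 32851 promoter windows of this length in RefSeq, and 6 of the 7 members had a window. Ace, on the opposite strand, and Agtr1b also held it, each 31 bases before a start. The CCAAT box CCAAT, the GC box GGGCGG, the glucocorticoid receptor motif AGAACA and the cAMP response element motif TGACGT were in neither the Agt nor the Ren1 window. They are held by 33.8%, 32.7%, 16.1% and 6.47% of all windows. A match is a description of the letters and not a site of binding.

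The reads counted on genes numbered 23584609 to 57430113 in the aged libraries and 25052335 to 55871402 in those of the dementia model. Levels are given as CPM, the library-size-scaled count of a gene, computed with edgeR's TMM method over the 34 aged libraries, and separately over the 20 dementia libraries. All 4 kidney markers had at least 10 counts in every kidney library, as had all 4 brain markers in every brain library and all 4 heart markers in every heart library. A member was treated as quantified in a tissue where its median was at least 10 counts. This held for 5 of 7 members in the kidney (Ren1, Agt, Ace, Agtr1a and Mme), 5 in the brain (Agt, Ace, Agtr1a, Agtr2 and Mme) and 4 in the heart (Agt, Ace, Agtr1a and Mme). The filter on low counts was passed by 7, 7 and 4 members. Kidney replicate 55, a Cmpd60 library, stood apart in its cell type markers, with a summed proximal tubule level of 3696 CPM where the other 10 kidney libraries lay between 6255 and 9474 CPM. The kidney fold changes of the quantified members are therefore also given without it.

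The members were spread over the tissues in different ways, which was tested in the 17 vehicle libraries with edgeR's quasi-likelihood test and Benjamini-Hochberg adjustment over 24855 genes. Between kidney and heart, 4 of 7 members passed an adjusted p of 0.05, all higher in the kidney, where 61.6% of all genes passed. Between kidney and brain 5 of 7 passed (76.6% of all genes), and between brain and heart 5 of 7 (76.0% of all genes). With shares this high among all genes, the number of members called is no result about the system. The sizes of the differences are given instead. The median log2 difference was 1.12 over the members and 0.00456 over all genes between kidney and heart, 2.80 and -0.20 between kidney and brain, and 0.23 and 0.34 between brain and heart.

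**Figure D1:**
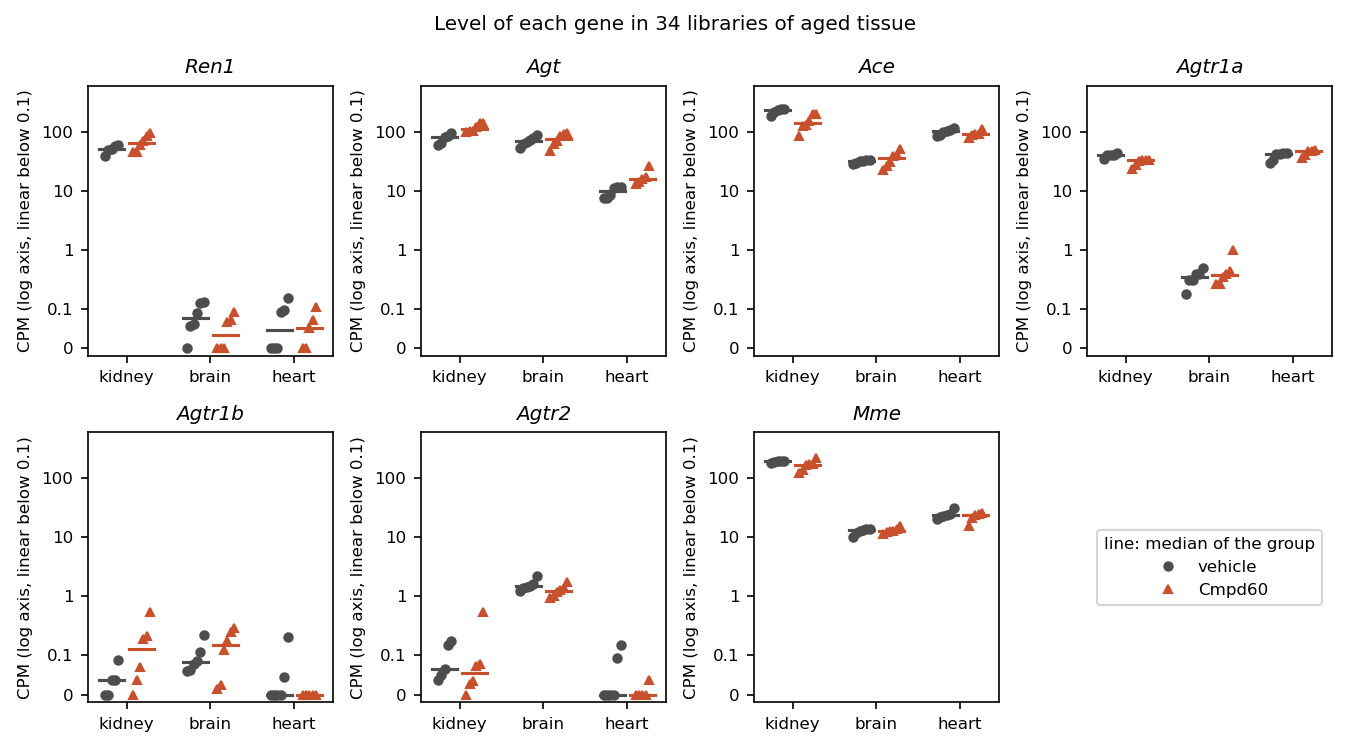
Level of each member in the 34 libraries of aged kidney, brain and heart, in CPM on a log axis that is linear below 0.1, with circles for vehicle, triangles for Cmpd60 and a line at the median of each group. Ren1 lay between 39.7 and 94.0 CPM in the kidney and at most 0.155 CPM elsewhere, and Agtr1a was high in kidney and heart while Agtr2 was at least 0.944 CPM in every brain library.

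Renin RNA was found almost only in the kidney. In vehicle mice, Ren1 stood at 39.7, 50.0, 51.9, 57.9 and 59.2 CPM in the 5 kidneys, where it had at least 1342 counts. The 6 vehicle brains held 0 to 5 counts and the 6 vehicle hearts 0 to 5 counts. The log2 difference was 9.51 (standard error 0.28, adjusted p = 9.52e-18 from edgeR) between kidney and heart and 9.28 (standard error 0.26, adjusted p = 2.10e-18) between kidney and brain, and both rest on the few counts outside the kidney. Against the heart it ran from 9.25 without heart vehicle replicate 66 to 10.22 without heart vehicle replicate 67. Between brain and heart the level did not differ beyond the spread (adjusted p = 0.769 from edgeR).

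Its substrate was distributed otherwise. Agt was at 60.9 to 96.5 CPM in the vehicle kidneys, 53.0 to 89.6 CPM in the vehicle brains and 7.68 to 11.6 CPM in the vehicle hearts. Kidney and brain overlapped, with a log2 difference of 0.11 (95% confidence interval -0.18 to 0.40, adjusted p = 0.479 from edgeR). Both lay above every heart, by 7.91-fold for the kidney (log2 difference 2.98, standard error 0.15) and 7.33-fold for the brain (2.87, standard error 0.15). Kidney was thus high in renin and in its substrate, and brain in the substrate with renin near 0 counts.

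The peptidases Ace and Mme had a common order of kidney, heart and brain. Ace was at 224 ± 25.7 CPM (SD, n = 5) in vehicle kidney, 100 ± 12.1 CPM (SD, n = 6) in heart and 31.6 ± 1.85 CPM (SD, n = 6) in brain, and no library of a tissue reached the range of the next. The log2 difference was 1.12 (standard error 0.09) between kidney and heart and -1.68 (standard error 0.08) between brain and heart. Mme was at 193 ± 7.51 CPM in kidney, 24.3 ± 3.79 CPM in heart and 12.7 ± 1.53 CPM in brain (SD, n as for Ace). It was 7.76-fold higher in kidney than in heart and 1.93-fold lower in brain than in heart, again without overlap.

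The receptors split between the organs. Agtr1a, the main AT1 receptor of rodents, was at 34.7 to 43.7 CPM in the vehicle kidneys and 30.0 to 44.1 CPM in the vehicle hearts. These did not differ beyond the spread, with a 95% confidence interval of the log2 difference from -0.22 to 0.22. In the brain the same gene was at 0.179 to 0.487 CPM (6 to 17 counts), 113-fold lower than in either other tissue (log2 difference -6.82 against the heart, standard error 0.16, adjusted p = 7.67e-20 from edgeR). Agtr2 had the opposite distribution, with 39 to 86 counts in each vehicle brain (1.24 to 2.21 CPM), 1 to 6 counts in each vehicle kidney and 0 to 3 in each vehicle heart. The brain was 16.2-fold above the kidney and 33.4-fold above the heart in the fit, where the heart value rests on 6 counts in 2 libraries. That log2 difference was 5.06, and it ran from 4.81 without heart vehicle replicate 66 to 5.78 without heart vehicle replicate 63. Agtr1b had a median of 1 count over all kidney libraries, 3.5 over all brain and 0 over all heart libraries, and no level is given for it. Agtr1a and Agtr1b are close paralogs, so a read that fits both can be lost or split in counting.

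Levels of different genes can be set beside each other only per length, here as CPM per kilobase of exon (mean over the vehicle libraries, with exon lengths from the gencode vM1 annotation, which may not be the one the submitters counted with). In the kidney, Mme (44.1), Ace (42.4) and Agt (41.2) had overlapping ranges, Ren1 followed at 31.2 with a range that overlapped those of Agt and Ace, and Agtr1a was at 16.3. In the brain, Agt led at 37.5, above Ace (5.98), Mme (2.89), Agtr2 (0.474) and Agtr1a (0.139), and no 2 of these 5 overlapped. In the heart the order was Ace (19.0), Agtr1a (15.9), Mme (5.55) and Agt (5.11), with overlap between Ace and Agtr1a and between Mme and Agt. Agt was thus the highest of the 5 quantified members in the brain, while in the heart Agt and Mme both lay below Ace and Agtr1a.

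Of 24 other genes of the pathway, 21 passed the filter in the fit of vehicle tissues. At an adjusted p below 0.05, 13 were higher and 6 lower in kidney than in heart (32.8% and 28.8% of all genes). Between kidney and brain, 14 were higher and 4 lower in kidney (34.9% and 41.7% of all genes). Between brain and heart, 5 were higher and 13 lower in brain (44.6% and 31.4% of all genes). Enpep, the aminopeptidase that makes angiotensin III, was at 200 ± 6.12 CPM in kidney, 19.5 ± 2.55 CPM in heart and 3.52 ± 0.260 CPM in brain (SD). Mas1, the receptor for angiotensin-(1-7), was highest in the brain like Agtr2, at 7.59 ± 1.14 CPM against 0.800 ± 0.348 CPM in kidney and 0.520 ± 0.283 CPM in heart (SD). Atp6ap2, the prorenin receptor and a subunit accessory to the vacuolar proton pump, was at 205 ± 17.2 CPM in brain, 108 ± 8.06 CPM in kidney and 27.5 ± 2.01 CPM in heart (SD). Anpep, an aminopeptidase that acts on angiotensin III, had the order of Enpep, at 157 ± 19.5, 23.0 ± 2.89 and 3.26 ± 0.240 CPM (SD). Klk1, a kallikrein that releases kinins, was at 1074 ± 105 CPM in kidney and 0.462 ± 0.418 CPM in heart (SD), and it belongs to a family of close copies among which reads can be split. Agtrap, whose product binds the AT1 receptor and promotes its internalization, was at 102 ± 4.12 CPM in kidney, 65.05 ± 3.60 CPM in heart and 12.5 ± 0.999 CPM in brain, and Mtus1, which encodes a protein that binds the AT2 receptor, at 342 ± 20.9 CPM in heart and 68.1 ± 5.66 CPM in brain (SD).

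A further list held 9 genes of mineralocorticoid action and sodium transport, which lie downstream of angiotensin II through aldosterone. At an adjusted p below 0.05, 6 were higher and 2 lower in kidney than in heart, where 61.6% of all genes were called. Between kidney and brain, 7 were higher and 1 lower in kidney (76.6% of all genes called). Between brain and heart, 3 were higher and 3 lower in brain (76.0% of all genes called). Slc12a3, the thiazide-sensitive cotransporter, was at 943 ± 85.5 CPM in kidney, 0.787 ± 0.495 CPM in heart and 0.269 ± 0.168 CPM in brain (SD). Hsd11b2, which protects the mineralocorticoid receptor from glucocorticoids, was at 125 ± 7.13 CPM in kidney and 0.148 ± 0.189 CPM in heart, and the sodium-proton exchanger Slc9a3 at 149.3 ± 18.9 and 1.33 ± 0.613 CPM (SD).

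In the aged heart, Cmpd60 was compared with vehicle to ask what the compound does to heart RNA, and angiotensinogen was the member that rose. Agt stood at 7.68, 7.68, 8.55, 11.0, 11.4 and 11.6 CPM in the vehicle hearts and at 13.1, 14.1, 16.0, 16.9 and 25.9 CPM in the Cmpd60 hearts. All 5 treated hearts lay above all 6 vehicle hearts, and replicate 72 lay well above the other treated hearts. The log2 fold change was 0.82 (standard error 0.18, 95% confidence interval 0.44 to 1.21), a 1.77-fold rise, and edgeR gave an adjusted p = 0.0401. It was the 1 call among 4 members tested, where 1.18% of 19452 genes were called, and the 1 member of 4 whose groups did not overlap, as for 2.43% of genes. The call was close to the threshold, and when each library was left out in turn it held for 4 of 11 libraries, with log2 fold changes from 0.62 (without replicate 72) to 0.92 and adjusted p from 0.0276 to 0.112. It was lost without Cmpd60 replicate 68, 69 or 72 and without vehicle replicate 63, 64, 65 or 67.

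The other members of the heart stayed within the spread. Ace was at 85.0 to 117 CPM with vehicle and 78.5 to 113 CPM with Cmpd60 (log2 fold change -0.13, 95% confidence interval -0.32 to 0.07). For Agtr1a it was 30.0 to 44.1 CPM and 36.3 to 49.1 CPM (0.16, interval -0.06 to 0.38), and for Mme 20.1 to 31.2 CPM and 15.6 to 25.4 CPM (-0.15, interval -0.42 to 0.12). Adjusted p-values of these 3 genes lay between 0.543 and 0.671 in edgeR. Ren1, Agtr1b and Agtr2 had 0 to 5 counts in each heart and were not tested.

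Beside the rise of Agt, the summed level of 5 endothelial markers ranged from 1218 to 1713 CPM in the treated hearts and from 1184 to 1269 CPM in the vehicle hearts, with none of the 5 markers called and all 5 above 0 on the log2 scale of change. Mural cell markers ranged from 1365 to 1916 CPM against 1495 to 1769 CPM, and fibroblast markers from 1194 to 1331 CPM against 1117 to 1384 CPM. Markers of adipocytes, a cell type known to make angiotensinogen, ranged widely in both groups, from 4.39 to 143.5 CPM and from 1.46 to 208 CPM. All 4 of them were below 0 on the log2 scale of change (median -0.56). The 4 atrial markers summed to 2672 to 7244 CPM against 3480 to 7963 CPM, with all 4 below 0 on the log2 scale of change (median -0.47), and the 4 mast cell markers to 3.72 to 5.33 CPM against 4.58 to 8.92 CPM, with 3 of 4 below 0 (median -0.42). An unadjusted p below 0.05 in edgeR was held by 2 markers each of the atrial, mast cell and endothelial lists. It was also held by 1 marker each of the adipocyte, mural and fibroblast lists. Of all genes, 13.5% had such a p, and no marker of these 6 lists was called. No marker of these 6 lists was at 0 in every library of a group. Their part in the result was not tested.

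**Figure D2:**
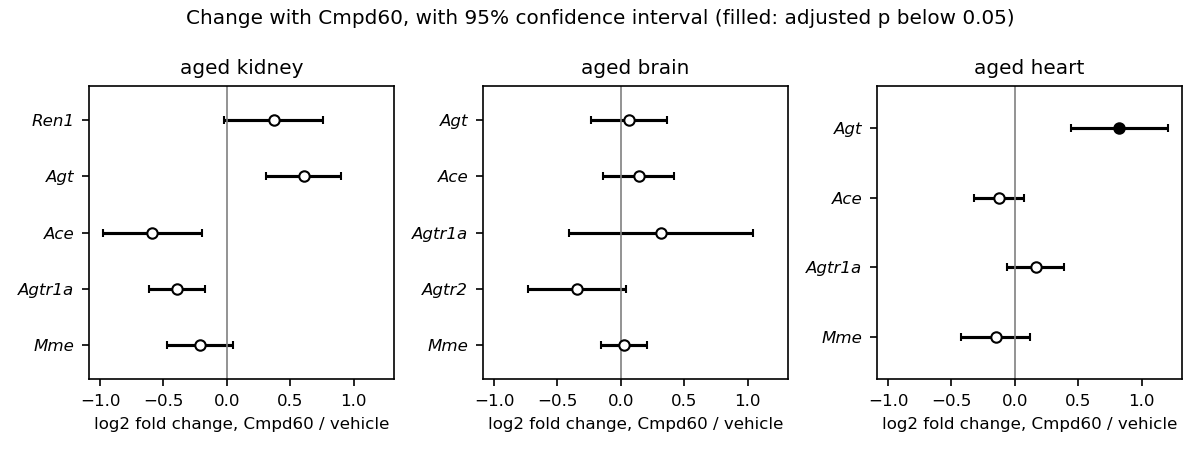
Log2 fold change of Cmpd60 over vehicle for each quantified member in aged kidney, brain and heart, with 95% confidence intervals from edgeR and filled points for an adjusted p below 0.05. Agt in the heart is the only filled point, at 0.82, and the intervals of Agt, Ace and Agtr1a in the kidney lie to one side of 0 while all 5 in the brain span it.

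Of the 24 other pathway genes, 21 were tested in the heart. At an adjusted p below 0.05, 1 of them rose and 1 fell, where 1.18% of 19452 genes were called. The median log2 fold change of the 21 was 0.04, against -0.00144 over all genes. Nln, the peptidase neurolysin, fell, from 21.4 to 26.0 CPM in the vehicle hearts to 15.9 to 20.3 CPM in the treated hearts (log2 fold change -0.49, standard error 0.09, adjusted p = 0.0157 from edgeR), without overlap. Agtrap rose from 59.6 to 69.9 CPM to 73.7 to 85.9 CPM (log2 fold change 0.27, standard error 0.06, adjusted p = 0.0490 from edgeR), also without overlap. Without replicate 72, the adjusted p was 0.0580 for Nln and 0.138 for Agtrap, and the call of Agtrap held only without replicate 71 among the 11 libraries left out in turn. Atp6ap2 was at 28.6 ± 2.81 and 27.5 ± 2.01 CPM (SD), with an adjusted p = 0.888.

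In the aged kidney no member passed the adjusted threshold, but the groups did not overlap for 2 of the 7 members, Agt and Agtr1a, which was the case for 2.31% of all 20698 genes tested. An adjusted p below 0.05 was reached by 0.300% of genes, which were 62. Agt stood at 60.9, 65.6, 81.0, 85.7 and 96.5 CPM in the vehicle kidneys and at 98.0, 104, 104, 121, 143 and 143 CPM in the Cmpd60 kidneys. The log2 fold change was 0.61 (standard error 0.14, 95% confidence interval 0.31 to 0.90, adjusted p = 0.0940 from edgeR), or 1.52-fold. Agtr1a went the other way, with 34.7, 40.3, 40.7, 41.3 and 43.7 CPM in the vehicle kidneys and 23.3, 27.6, 32.7, 33.2, 33.4 and 33.5 CPM in the treated kidneys. Its log2 fold change was -0.39 (standard error 0.10, interval -0.61 to -0.17, adjusted p = 0.143 from edgeR), or 1.31-fold lower. DESeq2 called both genes on the same counts, with an adjusted p = 0.0047 for Agt and 0.0278 for Agtr1a, whereas limma-voom, the test of the study's methods, called neither (0.0865 and 0.146). DESeq2 also called far more kidney genes than the 62 of edgeR, and that number is given in the last section.

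Of the enzymes in the kidney, Ace was lower in 4 of 6 treated kidneys than in any vehicle kidney. It stood at 86.5, 123, 128, 153.6, 200 and 203 CPM with Cmpd60 and at 182, 217, 235, 242 and 245 CPM with vehicle. The treated kidneys were spread more widely, and the lowest was replicate 55. The log2 fold change was -0.59 (standard error 0.18, interval -0.98 to -0.20, adjusted p = 0.220 from edgeR). Ren1 was at 45.3 to 94.0 CPM with Cmpd60 and 39.7 to 59.2 CPM with vehicle (0.37, interval -0.02 to 0.76, adjusted p = 0.470). Mme was at 124 to 219 CPM and 180 to 199 CPM, with 5 of 6 treated kidneys below all vehicle kidneys and replicate 52 above them (-0.21, interval -0.47 to 0.05, adjusted p = 0.530). Agtr1b and Agtr2 had 0 to 7 counts in each kidney except replicate 55, which had 17 of each, and no fold change is given.

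Replicate 55 had the lowest level of Ren1, Ace, Agtr1a and Mme and the highest of Agt among the treated kidneys. Without it, the log2 fold change was -0.47 for Ace, -0.32 for Agtr1a, -0.14 for Mme, 0.55 for Agt and 0.46 for Ren1, and none was called (adjusted p from 0.0991 to 0.676 in edgeR). The 6 proximal tubule markers summed to 3696 to 9474 CPM in the treated and 7265 to 9023 CPM in the vehicle kidneys, and 5 of these 6 markers had a log2 fold change below 0 (median -0.27) with none called. Mme and Ace are known to be rich in the brush border of the proximal tubule. After removal of the group means, the log2 level of Ace went with the log2 proximal tubule sum at a Pearson r of 0.85 (Spearman rho 0.70) and that of Mme at 0.83 (rho 0.60), over 11 libraries whose normalization is shared by both values. The other lists compared with Ace in the kidney gave a Pearson r from -0.575 (fibroblast) to 0.526 (podocyte). For Mme, rho was higher with the podocyte (0.718) and adipocyte sums (0.791), at a Pearson r of 0.73 and 0.60. These kidney correlations include replicate 55 and were not computed without it. It was the lowest of the 11 libraries in Ace, in Mme and in the proximal tubule sum. The part of these cell types in these results was not tested.

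**Figure D3:**
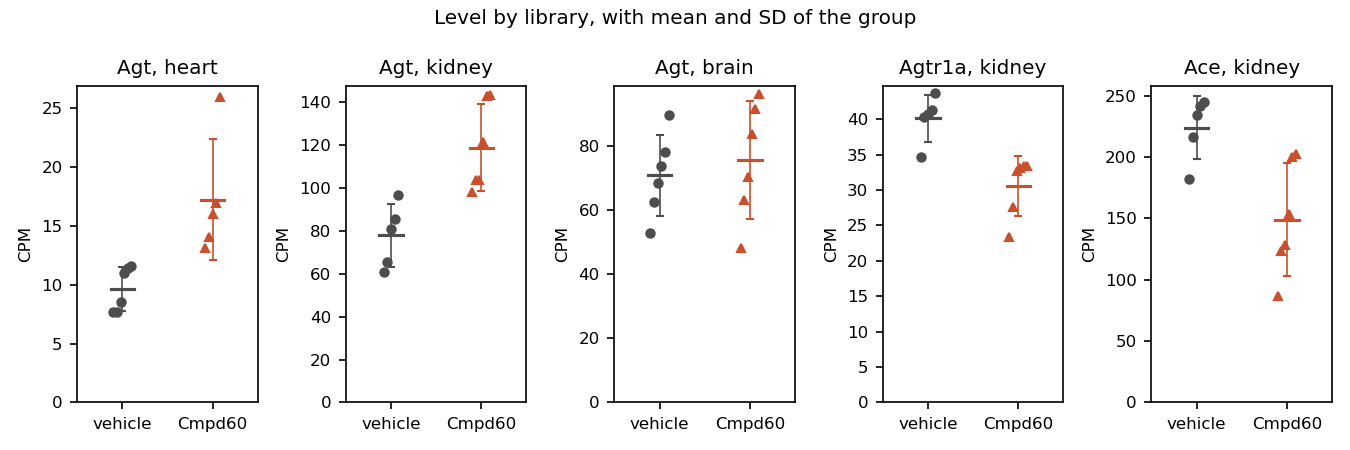
CPM of Agt in aged heart, kidney and brain and of Agtr1a and Ace in aged kidney, 1 point per library, with circles for vehicle, triangles for Cmpd60 and the mean and SD of each group. The groups do not overlap for Agt in heart and kidney and for Agtr1a in kidney, and they overlap for Agt in brain and Ace in kidney.

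Of the other pathway genes in the kidney, none of 21 tested was called, and 6 were higher and 2 lower at an unadjusted p below 0.05 (11.3% of all genes had such a p in either direction). Their median log2 fold change was 0.03. Agtrap, named here because it rose in the heart, was at 97.3 to 107 CPM with vehicle and 117 to 136 CPM with Cmpd60, without overlap, and did not pass the adjustment (log2 fold change 0.30, standard error 0.07, adjusted p = 0.108 from edgeR). For Atp6ap2 the mean was 108 ± 8.06 CPM in the 5 vehicle kidneys and 91.1 ± 12.3 CPM in the 6 treated kidneys (SD, adjusted p = 0.378).

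In the aged brain none of the 7 members was called, where 0.0205% of 24438 genes were. Agt was at 53.0 to 89.6 CPM with vehicle and 48.04 to 96.3 CPM with Cmpd60 (log2 fold change 0.06, interval -0.23 to 0.36), and Mme at 9.95 to 14.1 and 11.4 to 15.4 CPM (0.02, interval -0.16 to 0.20). Agtr2 was at 1.24, 1.40, 1.46, 1.52, 1.62 and 2.21 CPM with vehicle and 0.944, 0.998, 1.21, 1.29, 1.39 and 1.77 CPM with Cmpd60. Of the 6 treated brains, 3 lay below all vehicle brains, and the log2 fold change was -0.35 (interval -0.73 to 0.04, adjusted p = 0.416 from edgeR). Agtr1a had 6 to 34 counts in each brain (log2 fold change 0.32, interval -0.41 to 1.04), and Ren1 and Agtr1b had 0 to 6 and 1 to 12 counts. None of 18 other pathway genes tested was called or had an unadjusted p below 0.05, where 13.8% of all genes had such a p. Atp6ap2 was at 205 ± 13.3 CPM with Cmpd60 and 205 ± 17.2 CPM with vehicle (SD, n = 6 and 6).

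Ace was not called in the brain (log2 fold change 0.14, interval -0.14 to 0.42), but its values ranged more widely among the treated brains than among the vehicle brains. It stood at 28.7, 30.2, 31.7, 32.6, 32.9 and 33.6 CPM with vehicle and at 22.8, 26.8, 31.2, 39.7, 40.7 and 51.7 CPM with Cmpd60. Markers of the choroid plexus, the epithelium that secretes cerebrospinal fluid and is known to be rich in Ace, varied likewise, from 453 to 648 CPM in sum with vehicle and from 189 to 822 CPM with Cmpd60. The lowest of both was in replicate 34 and the highest of both in replicate 38. After removal of group means, the log2 levels went together at a Pearson r of 0.93 and a Spearman rho of 0.94 over 12 libraries that share normalization and dissection. The other lists compared with Ace in the brain gave a Pearson r from -0.158 (endothelial) to 0.368 (mural). Agt, which astrocytes are known to make, went against the sum of 6 astrocyte markers at a Pearson r of -0.83 over the same libraries. With the other lists, its r ran from -0.348 (choroid plexus) to 0.614 (endothelial). These correlations are descriptions, and the part of the cell types was not tested. In the heart, Ace went with the sum of fibroblast markers at a Pearson r of 0.86 over 11 libraries, the highest of the lists compared there. With the mural, endothelial, atrial and adipocyte sums, r was 0.313, 0.148, -0.158 and -0.51.

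**Figure D4:**
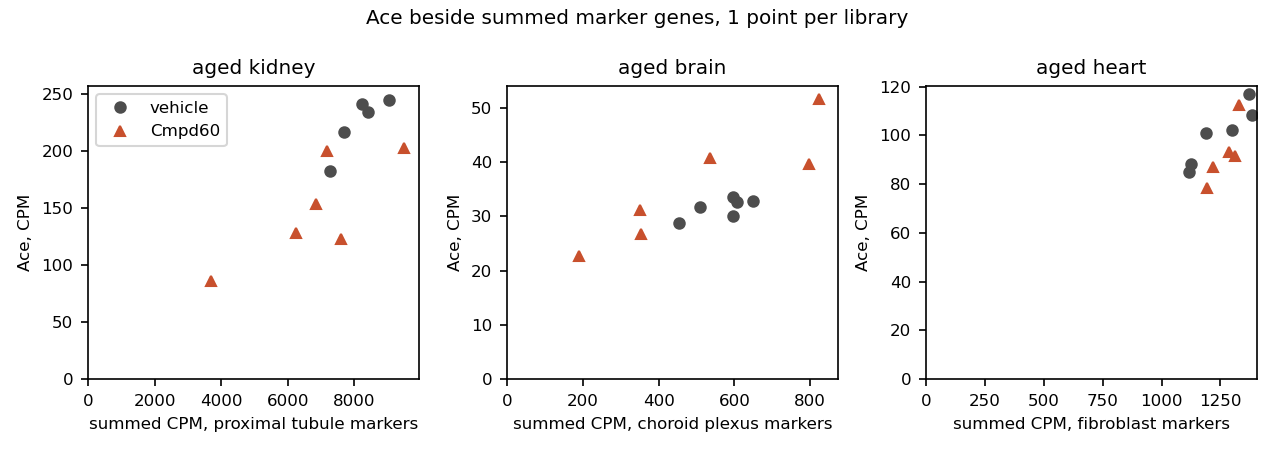
Ace in CPM against the summed CPM of proximal tubule markers in aged kidney, choroid plexus markers in aged brain and fibroblast markers in aged heart, 1 point per library, with circles for vehicle and triangles for Cmpd60. The list shown for each tissue is the one with the highest Pearson r with Ace among those compared there. In the brain, Ace rises with the choroid plexus sum from 22.8 CPM at a sum of 189 CPM to 51.7 CPM at a sum of 822 CPM.

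Whether Cmpd60 acted differently on a member in 2 tissues was tested as the difference of its log2 fold changes in a fit of all 34 aged libraries, where 0.0885%, 0.350% and 0.0517% of 27105 genes were called for kidney minus brain, kidney minus heart and heart minus brain. No member was called. For Agt the difference was 0.52 (adjusted p = 0.462) between kidney and brain, -0.23 (adjusted p = 0.824) between kidney and heart and 0.75 (adjusted p = 0.313) between heart and brain. For Ace it was -0.76 (adjusted p = 0.213) between kidney and brain, and for Agtr1a -0.56 (adjusted p = 0.239) between kidney and heart. For Mme it was -0.26 (adjusted p = 0.621) between kidney and brain, -0.08 (adjusted p = 1) between kidney and heart and -0.19 (adjusted p = 0.827) between heart and brain. The rise of Agt past the threshold in the heart alone is therefore not shown to be particular to the heart.

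The genes most like each member were sought in the tissue where its mean over all libraries was highest, among the 3 largest Pearson r of log2 CPM over its 11 or 12 libraries with group means removed. For Ren1 in the kidney these were Sqor (0.968), Slc25a5 (0.959) and Serpina1d (0.954), and for Agt in the kidney Chka (0.960), Cyp2d22 (0.921) and Igfals (0.918). Ace in the kidney was most like Slc9a2 (0.976) and Tmem183a (0.971), and Mme in the kidney like Npr2 (0.956), Hcar1 (0.944) and Pogk (0.938). In the heart, Agtr1a was most like G6pc3 (0.927), Gm13597 (0.922) and Rsu1 (0.917). In the brain, Agtr2 was most like Tor2a (0.882), Wscd1 (0.860) and Gltp (0.856). Each is among the top of 13138 to 14136 genes compared, no test was made, and the kidney values include replicate 55. Agtr1b was compared in the brain too, but its genes are not given because its counts were low.

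In the dementia model none of the members was called for Cmpd60 in either genotype or for genotype under vehicle. Over all 23273 genes, edgeR called 0 for Cmpd60 in APPSWE (0%) and 0 in AD-control brains (0%), where 2044 (8.78%) and 875 (3.76%) genes had an unadjusted p below 0.05 and DESeq2 called 14 and 8, and edgeR called 2 for genotype (0.00859%). These libraries held 15044 to 24821 detected genes, against 24939 to 28017 in the aged brains, and edgeR estimated a biological coefficient of variation of 0.742 for them and 0.114 for the aged brains. One APPSWE library is a vehicle library in the labels and a Cmpd60 library in a table of the study, and the labels were followed.

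None of the 3 abundant members of these brains differed between groups beyond the spread. Agt was at 105 ± 14.5 CPM (SD, n = 6) in APPSWE vehicle, 95.5 ± 6.47 CPM (SD, n = 4) in APPSWE Cmpd60, 104 ± 19.2 CPM (SD, n = 5) in AD-control vehicle and 98.0 ± 12.3 CPM (SD, n = 5) in AD-control Cmpd60. Ace was at 46.02 ± 11.4, 38.9 ± 5.57, 49.6 ± 7.74 and 51.5 ± 9.50 CPM in the same order. Mme, which degrades the amyloid peptide that the transgene yields, was at 19.5 ± 7.00, 22.4 ± 3.85, 23.2 ± 7.15 and 19.0 ± 2.12 CPM. For Mme the log2 difference was 0.20 (interval -0.29 to 0.69) for Cmpd60 in APPSWE, -0.29 (interval -0.77 to 0.20) for Cmpd60 in AD-control and -0.25 (interval -0.72 to 0.21) for APPSWE against AD-control under vehicle. Adjusted p-values of Agt, Ace and Mme in these 3 comparisons were 0.828 or above. The log2 difference of Atp6ap2 was 0.04, 0.06 and 0.04 in the same order (adjusted p of 0.982 or above in edgeR).

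The receptors varied widely within every group of these libraries. Agtr2 was at 0 in 3 of 20 libraries and reached 302 counts in another, and Agtr1a was at 0 in 6 of 20 and reached 112 counts. In APPSWE brains, Agtr1a had 13, 25, 40 and 112 counts with Cmpd60 and 0, 0, 0, 6, 13 and 14 counts with vehicle. The difference was not called (adjusted p = 0.615 from edgeR). The 112 counts came from replicate 141, with 16402 genes detected, and the 40 from replicate 143, a library of 55844566 counts. The median of genes detected was 22604.5 in the Cmpd60 and 18320 in the vehicle APPSWE libraries. The median was 0 counts for Ren1, which reached 31 counts in 1 library, and 0.5 for Agtr1b over the 20 libraries.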

How the data were processed

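RNA of whole tissue was sequenced from oligo-dT libraries, and the deposited files hold the authors' raw read counts per gene, 1 file per library. Per the submitters' processing notes, reads were handled with FastQC, Trimmomatic 0.32, HISAT2 2.1.0 and HTSeq 0.11.0; the genome build is not given in the sources used here. The 5 summary lines of each file (15.4 to 22.1% of reads) were left out. A gene was tested where 3 or more libraries of the fit held over 2 counts, by quasi-likelihood in edgeR 4.0.16 (R 4.3.3, TMM, adjusted p below 0.05, Benjamini-Hochberg), per tissue for Cmpd60, and over all vehicle libraries for tissues. DESeq2 1.42.0, limma-voom (limma 3.58.1), other filters and scalings, and leaving out each library were alternatives. The 7 members and Atp6ap2 were named whatever their values, with up to 6 other pathway or target genes past the threshold by smallest adjusted p; some genes these rules select, and a ratio that used 1 of them, are not reported here. Members and lists were chosen with earlier results of these data known. P-values measure the spread between libraries, and so do the confidence intervals of log2 differences, which come from the edgeR fits. The fits were tested on simulated data.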

Additional observations from a re-analysis of the deposited data

Results flagged for a closer look

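The values formed 48 sets, each a quantified member in a group of 4 to 6 libraries. In 5 sets a library lay far from the others by Dixon's test, which for normally distributed values chance gives in about 1 of 20 sets. All 5 concern a receptor gene in brain. Agtr1a was at 0.976 CPM in replicate 34 of the aged Cmpd60 brains, where the next was 0.437 CPM. It was at 4.37 CPM in 1 of the APPSWE Cmpd60 brains (next 0.971 CPM) and at 1.59 CPM in 1 of the AD-control vehicle brains (next 0.368 CPM). Agtr2 was at 8.93 CPM in another of the AD-control vehicle brains (next 2.56 CPM) and at 9.31 CPM in 1 of the AD-control Cmpd60 brains (next 2.26 CPM).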

How the results depend on the processing

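The call of Agt in the heart held with DESeq2, limma-voom and the other filters and scalings, and the number of members called there ranged from 0 to 1 when 1 library was left out. With DESeq2, 2 members were called in the kidney, and 429 genes in kidney, 429 in brain and 746 in heart, with 14 for Cmpd60 in APPSWE, 8 in AD-control and 28 for genotype. With no filter, 94 genes were called in kidney, 102 in brain, 9 in APPSWE and 2 in AD-control brains. A single fit of the 34 aged libraries called 552 genes in kidney and 0 in brain, where 3368 had an unadjusted p below 0.05 in the edgeR fit of brain alone. With limma-voom, 2 genes were called in brain, 58 for kidney minus brain and 60 for kidney minus heart. Left-out libraries moved the genes called from 20 to 131 in kidney (lowest without vehicle replicate 46, highest without Cmpd60 replicate 52), 1 to 372 in brain (highest without vehicle replicate 29), 36 to 247 in heart (lowest without Cmpd60 replicate 72), 0 to 2 in AD-control and 1 to 3 for genotype. Log2 differences near 0 changed sign. Agtr1a between kidney and heart was 0.00177 with limma-voom and 0.0024 with no filter. Left-out libraries gave -0.0233 to 0.165 for Agt, -0.0478 to 0.439 for Agtr1a and -0.0389 to 0.0579 for Mme in brain, -0.00949 to 0.0713 for Atp6ap2 in heart, -0.0651 to 0.0468 for Agtr1a between kidney and heart, -0.0555 to 0.124 for Agt by genotype, and -0.158 to 0.0212 for Agt and -0.047 to 0.133 for Ace in AD-control. The cause was not tested. No paired analysis was possible because groups share no replicate numbers.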
